A study of Mus musculus with 12 samples.

Results

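Podocytes are the epithelial cells that cover the outer surface of the glomerular capillaries, and the genes that mark them were followed in whole kidney after inhibition of the salt-inducible kinases. Neighboring podocytes interlock through foot processes, the gaps between them are bridged by the slit diaphragm, and the cells rest on a shared basement membrane. The 8 genes described were chosen by name as podocyte genes, out of 55401 gene identifiers in the tables. They are *Nphs1*, *Cd2ap* and *Magi2* of the slit diaphragm, *Podxl* and *Ptpro* of the podocyte surface, *Synpo* of the foot process cytoskeleton, and the transcription factors *Wt1* and *Tcf21*. Some of the 8 are not confined to podocytes. *Cd2ap* is broadly expressed, *Podxl* is also made by endothelial cells, and *Tcf21* also marks stromal cells of the renal interstitium.

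Male C57BL6 mice, 8 weeks of age, received a single intraperitoneal injection, and RNA of the whole kidney was sequenced as 1 library per mouse. The 6 vehicle mice were given 15% 2-hydroxypropyl-beta-cyclodextrin, and the 6 SK-124 mice were given SK-124, a small-molecule inhibitor of SIK2 and SIK3, at 40 mg/kg. No allele was altered in either group, and no separate collection time is given for these libraries in the sources used here. Salt-inducible kinases phosphorylate the CRTC coactivators of the transcription factor CREB and class IIa histone deacetylases and so hold them in the cytoplasm.

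RSEM's expected counts, the estimated reads per gene, summed to between 19350134 and 19771802 in vehicle mice and to between 19244227 and 19530313 in SK-124 mice. Expected counts were put on a common library size with TMM (CPM). SK-124 was tested against vehicle by the quasi-likelihood method of edgeR, and the FDR is the p adjusted by Benjamini and Hochberg's method over 14159 genes. In SK-124 mice 1 to 3 the 10 genes with the most counts took 44.4% to 46.8% of the library, above the 39.9% to 43.2% of vehicle mice, and in SK-124 mice 4 to 6 they took 38.6% to 40.2%. As a check of the treatment, *Cyp27b1*, the gene of the enzyme that activates vitamin D, rose by 2.56 on the log2 scale (standard error, SE, 0.22, FDR = 2.35e-07, edgeR), and *Cyp24a1*, the gene of the enzyme that inactivates it, fell by 2.32 (SE 0.48, FDR = 0.00154, edgeR).

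All 8 podocyte genes were detected in every mouse, with at least 50 expected counts each, and all passed the filter on low counts. *Tcf21* fell, and the other 7 genes were not called in either direction. Across all genes tested, 13.5% were called lower and 10.8% higher, so 1 lower call among 8 genes was near the background. By edgeR, 2 of the 8 genes were lower and 0 higher at an unadjusted p under 0.05. At least 4814 of the 14159 genes tested met that level by edgeR in either direction, so 2 of 8 did not exceed the background. With DESeq2, 1 gene, *Cd2ap*, was higher at that unadjusted level, and 0 were higher after adjustment. No share of all genes at that level is given for DESeq2. The median log2 fold change of the 8 genes was -0.066, beside -0.0050 over all genes tested. In bulk RNA, fewer podocytes in a sample and less RNA per podocyte cannot be told apart.

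**Figure D1:**
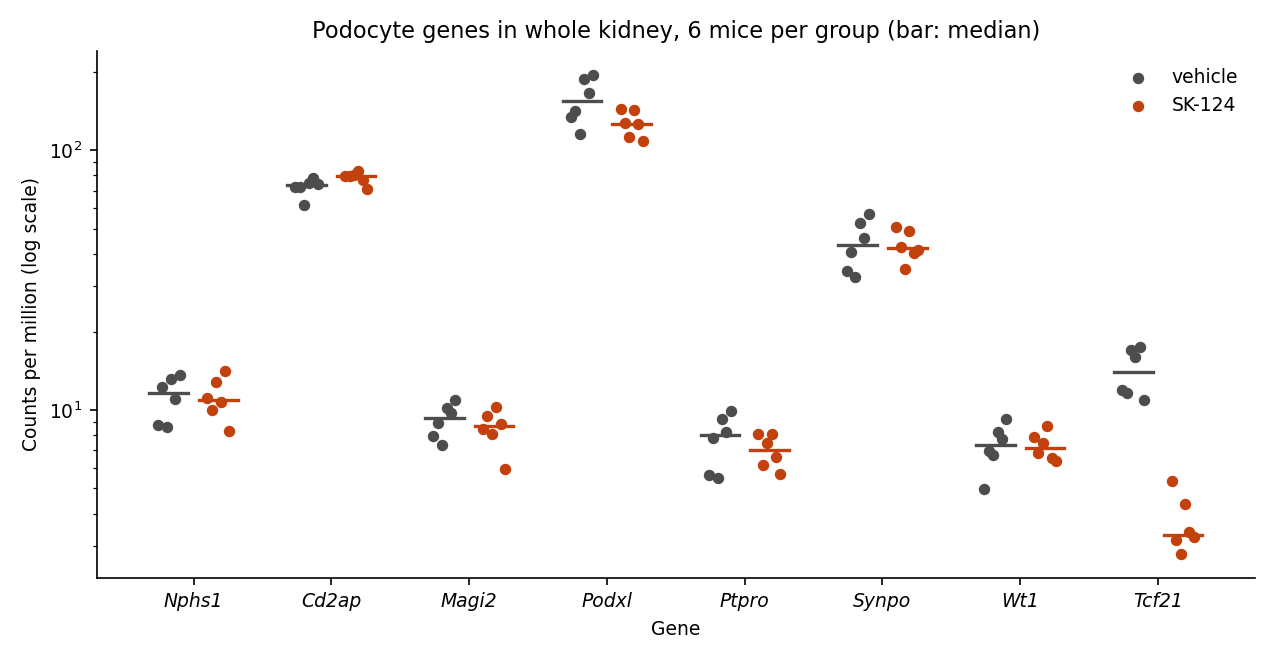
TMM-normalized CPM of the 8 podocyte genes on a log axis, 1 point per mouse, with vehicle mice in gray and SK-124 mice in orange and a bar at each group's median. The groups are apart for *Tcf21*, from 10.9 to 17.5 CPM in vehicle mice and from 2.80 to 5.33 CPM in SK-124 mice, and overlap for the other 7 genes.

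*Tcf21* encodes a basic helix-loop-helix transcription factor that is needed for the formation of glomeruli and is kept in mature podocytes. Its CPM was lowest at 10.9, had a median of 14.0 and was highest at 17.5 in vehicle mice. In SK-124 mice the lowest value was 2.80, the median 3.33 and the highest 5.33. Every SK-124 mouse was below every vehicle mouse, a pattern seen in 6.65% of all genes tested. The mean of 6 vehicle mice was 14.2 ± 2.98 CPM (SD), and that of 6 SK-124 mice 3.72 ± 0.946 CPM (SD). This is a log2 fold change of -1.93 (SE 0.16, FDR = 1.06e-07, edgeR), a level 3.82-fold lower. Its 95% interval ran from -2.27 to -1.60. A two-sided exact permutation test gave p = 0.00217, the smallest value that 6 mice against 6 allow. Only 17 of the genes tested had a lower log2 fold change. Behind these values stood 230 to 368 expected counts per vehicle mouse and 50 to 92 per SK-124 mouse.

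The *Tcf21* difference was similar with either part of the SK-124 group set against the same vehicle mice. The fits share those vehicle mice and are not independent. With SK-124 mice 1 to 3 alone the log2 fold change was -1.91 (FDR = 4.32e-05), and with mice 4 to 6 alone it was -1.94 (FDR = 8.78e-06), both by edgeR. Over all 23 alternative settings it lay between -2.06 and -1.76, with FDRs up to 4.32e-05. The length that RSEM assigns to the gene, weighted by the abundance of its transcripts, ranged from 1271 to 1278 bases in vehicle mice and from 1267 to 1290 bases in SK-124 mice.

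*Tcf21* (ENSMUSG00000045680.8) is a protein-coding gene on the minus strand at chr10:22817281-22820174 in GENCODE M21 (GRCm38). An antisense gene, *Gm10824*, spans all of it on the plus strand, at chr10:22815749-22823330. *Gm10824* had 1 to 6 expected counts per vehicle mouse and 0 to 1 per SK-124 mouse, too few to be tested. Whether strand was used in counting is not given in the sources used here. RSEM's posterior standard deviation of the *Tcf21* count, its uncertainty in assigning reads, was 0 in every mouse. A part of antisense reads in the *Tcf21* count was not tested. Of the genes within 500000 bases, 3 were tested. *Slc2a12* had a log2 fold change of -0.09 (FDR = 0.557), *Tbpl1* rose by 0.30 (FDR = 0.0279), and *Eya4* had -0.37 (FDR = 0.439), all by edgeR.

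The promoter of *Tcf21* is shown because it is the gene whose RNA differed, and that of *Ptpro* for comparison, as a surface gene that was not called. Both are RefSeq windows in GRCm38.p6, from 250 to 32 bases before the RefSeq start and outside the GENCODE gene, read 5′ to 3′ on the gene's own strand. They lie at chr10:22820175-22820393 on the minus strand and chr6:137252049-137252267 on the plus strand. Capitals mark the letters CANNTG, the general form of the E-box that basic helix-loop-helix factors bind.
Tcf21: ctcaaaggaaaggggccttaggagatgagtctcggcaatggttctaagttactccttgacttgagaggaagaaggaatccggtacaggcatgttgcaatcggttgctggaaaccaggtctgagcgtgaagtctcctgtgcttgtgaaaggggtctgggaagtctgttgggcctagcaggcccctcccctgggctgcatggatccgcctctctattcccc
Ptpro: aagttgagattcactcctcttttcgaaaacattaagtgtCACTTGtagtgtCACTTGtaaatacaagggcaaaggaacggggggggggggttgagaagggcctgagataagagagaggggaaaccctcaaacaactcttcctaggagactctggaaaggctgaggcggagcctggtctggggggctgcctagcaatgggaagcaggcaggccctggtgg
CANNTG was present 2 times in the *Ptpro* window, starting 211 and 199 bases before the RefSeq start, and was not found in the *Tcf21* window. It was found in 62.0% of 32851 promoter windows of the same length. Both strands were also searched for TGACG, the half-site of CREB (14.7% of all windows), TGTTCT, the half-site of the glucocorticoid receptor (14.3%), CAGCTG, an E-box that CANNTG includes (11.4%), GTAAACA of forkhead factors (2.80%), GCGTGGG of the WT1 and EGR zinc fingers (3.73%), and TATAAA (9.92%). None of these letters was in the *Tcf21* or the *Ptpro* window. G and C made up 54.8% of the *Tcf21* window and 53.4% of the *Ptpro* window, beside a median of 52.1% over all windows.

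*Podxl*, *Ptpro* and *Synpo* belong to the podocyte surface and foot process. *Podxl* encodes podocalyxin, the charged sialomucin of the apical membrane that keeps foot processes apart, and lies at chr6:31519488-31563981 on the minus strand. Its CPM was lowest at 115.0, with a median of 154 and a highest value of 195, in vehicle mice. The corresponding values in SK-124 mice were 108, 127 and 145. The groups overlapped, with 2 SK-124 mice below the vehicle range. SK-124 against vehicle gave a log2 fold change of -0.31 (SE 0.11, FDR = 0.0626, edgeR), with a 95% interval from -0.55 to -0.064.

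*Podxl* was the one gene among the 8 whose call depended on the setting. Its FDR was under 0.05 in 7 of 24 settings. Leaving out vehicle mouse 1 gave -0.35 (FDR = 0.0491), leaving out vehicle mouse 3 gave -0.38 (FDR = 0.00953) and leaving out SK-124 mouse 1 gave -0.35 (FDR = 0.0496), each by edgeR. With library totals in place of TMM, the median of all genes moved to -0.12. *Podxl* had -0.42 on that scale (FDR = 0.0149), which is -0.31 relative to that median.

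*Ptpro* encodes the receptor tyrosine phosphatase GLEPP1 of the podocyte's apical membrane, at chr6:137252319-137463233. In vehicle mice its CPM ran from 5.46 through a median of 8.04 to 9.90, and in SK-124 mice from 5.68 through 7.03 to 8.12. All SK-124 values lay within the vehicle range, and the log2 fold change was -0.14 (95% interval from -0.44 to 0.17, FDR = 0.534). *Synpo* encodes synaptopodin, an actin-associated protein of foot processes. Vehicle mice had a lowest CPM of 32.6, a median of 43.2 and a highest of 56.8, and SK-124 mice had 35.0, 41.9 and 50.9. SK-124 values again lay inside the vehicle range, with a log2 fold change of -0.02 (95% interval from -0.29 to 0.24, FDR = 0.920).

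Slit diaphragm genes overlapped between the groups. *Nphs1* encodes nephrin, the adhesion protein that forms the slit diaphragm, and lies at chr7:30458315-30487223. Its CPM was 8.58 at the lowest, 11.6 at the median and 13.6 at the highest in vehicle mice, and 8.31, 10.9 and 14.1 in SK-124 mice. The SK-124 range reached past the vehicle range on both sides, by 1 mouse each. Its log2 fold change was -0.0058 (95% interval from -0.29 to 0.28, FDR = 0.982). *Magi2* encodes a scaffold that binds nephrin, at chr5:19227036-20704792. Vehicle mice ran from 7.35 through a median of 9.32 to 10.9 CPM, and SK-124 mice from 5.93 through 8.66 to 10.3 CPM. The groups overlapped but for 1 SK-124 mouse below the vehicle range, and the log2 fold change was -0.11 (95% interval from -0.37 to 0.15, FDR = 0.569).

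*Cd2ap* encodes the adaptor that links nephrin to the actin cytoskeleton, at chr17:42792951-42876665. Its CPM was lowest at 61.5, with a median of 73.3 and a highest value of 78.0, in vehicle mice, and 71.0, 79.6 and 83.1 in SK-124 mice. In 4 SK-124 mice the value was above the vehicle range. The log2 fold change was 0.12 (95% interval from -0.0053 to 0.24, FDR = 0.161, edgeR), and the two-sided exact permutation test gave an unadjusted p = 0.0433, as 1 of 8 such tests. On TPM, levels scaled to gene length and to a fixed total, with a pseudocount of 1 its log2 difference was -0.043 (FDR = 0.804, limma), where the median of all genes was -0.11.

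*Wt1* encodes the zinc finger factor that directs podocyte genes such as *Nphs1*. It had a lowest CPM of 4.99, a median of 7.36 and a highest of 9.29 in vehicle mice, and 6.39, 7.15 and 8.71 in SK-124 mice. All SK-124 mice were inside the vehicle range, and the log2 fold change was -0.0069 (95% interval from -0.27 to 0.26, FDR = 0.976, edgeR). For the 7 genes that were not called, a missed threshold does not show equal levels, and the intervals give the differences these mice leave possible.

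Levels of different genes were compared as TPM. In vehicle mice *Podxl* stood first with a median of 28.3 TPM and a range above that of every other gene. *Cd2ap* (13.9 TPM), *Tcf21* (11.7 TPM) and *Synpo* (8.89 TPM) followed, and neighbors in this order overlapped. *Wt1* (3.56 TPM), *Nphs1* (2.68 TPM), *Ptpro* (1.70 TPM) and *Magi2* (1.63 TPM) came last, each overlapping its neighbor, below the range of *Synpo*. In SK-124 mice *Tcf21* had a median of 2.89 TPM and stood between *Wt1* (3.07 TPM) and *Nphs1* (2.25 TPM), whose ranges it overlapped.

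Set against the summed TPM of the other 7 genes in the same mouse, *Tcf21* made up 12.9% at the lowest, 20.05% at the median and 30.9% at the highest in vehicle mice. In SK-124 mice it made up 4.74%, 5.46% and 7.55%, so no SK-124 mouse reached the vehicle range. The TPM of *Tcf21* alone already separated the groups, with 9.97 to 16.01 in vehicle mice and 2.04 to 3.78 in SK-124 mice. The percentages restate that difference and are not separate evidence for it. The summed TPM of the other 7 genes overlapped between the groups, from 43.8 to 78.0 in vehicle mice and from 43.0 to 58.2 in SK-124 mice. *Podxl* and *Cd2ap*, which are not confined to podocytes, had the highest median TPM of these 7 in both groups. The percentage is therefore not a measure of *Tcf21* per podocyte.

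**Figure D2:**
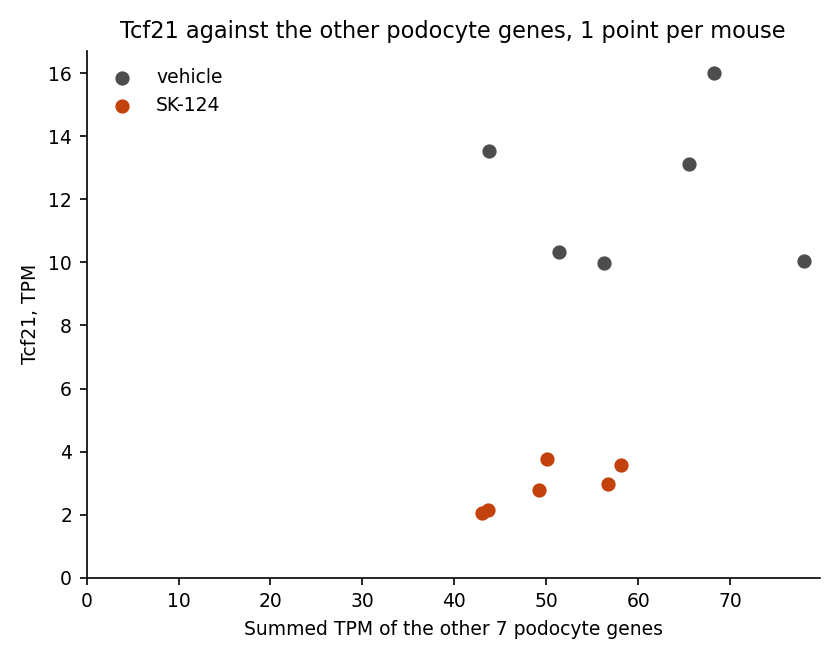
TPM of *Tcf21* on the vertical axis against the summed TPM of the other 7 podocyte genes on the horizontal axis, 1 point per mouse, with vehicle mice in gray and SK-124 mice in orange. The 6 SK-124 mice lie at or below 3.78 TPM of *Tcf21* and the 6 vehicle mice at or above 9.97 TPM, over sums that overlap.

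The genes also varied from mouse to mouse within a group. As a description over 12 mice, with each group's mean removed from log2(TPM + 1), each gene was correlated with the mean of the other 7. The values share the libraries, and *Podxl* (r = 0.92), *Synpo* (r = 0.91) and *Wt1* (r = 0.82) moved most closely with the rest. *Ptpro* (r = 0.78), *Cd2ap* (r = 0.75), *Magi2* (r = 0.74) and *Nphs1* (r = 0.69) followed. *Tcf21* had r = 0.30, from 0.051 among vehicle mice and 0.70 among SK-124 mice. Among genes outside the lists with a mean of at least 1 TPM, those most like the mean of the 8 genes by the same measure were *Shisa3* (r = 0.96), *Pdgfb* (r = 0.95), *4632415L05Rik* (r = 0.94), *Ripor1* (r = 0.94) and *Lrch1* (r = 0.93). They were picked for the highest r of all such genes, so high values come from the choice itself. By edgeR *Shisa3* rose by 0.35 (FDR = 0.0247), and *Pdgfb* fell by 0.69 (FDR = 7.83e-05). *4632415L05Rik* fell by 0.26 (FDR = 0.00671), and *Ripor1* and *Lrch1* were not called.

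The length that RSEM gives a gene moves when the mix of its transcripts changes, and was tested as a readout apart from the level. It varied for 7 of the 8 genes and was constant for *Podxl*. By limma on log2 length, 0 of the 7 were called at an FDR under 0.05, beside 0.0581% called over 12054 genes. At an unadjusted p under 0.05 there were 0 of the 7, beside 686 of the 12054 genes. The largest difference was that of *Magi2*, whose length ran from 4865 to 6372 bases in vehicle mice and from 4416 to 5799 bases in SK-124 mice (log2 ratio -0.092, SE 0.084, FDR = 0.961).

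A wider list held 52 other podocyte genes, of which 50 were tested. Of these, 7 rose, 10 fell and 33 were not called, beside 10.8% called higher and 13.5% lower among all genes tested. The median log2 fold change of the list was -0.048, beside -0.0050 over all genes tested. All SK-124 mice were above all vehicle mice for 4 of the 50 genes, beside 6.32% of all genes tested, and below them for 3, beside 6.65%. The calls of 7 of the 17 genes (*Nck1*, *Lama5*, *Col4a4*, *Agrn*, *Dach1*, *Vegfa* and *Clic5*) were lost when 1 mouse was left out, for 3 to 9 of the 12 mice depending on the gene, with FDRs up to 0.102. The other 10 kept their call without each of the 12 mice. On log2(TPM + 1), where the median of all genes was -0.11, 1 gene of the list was still called higher. On that scale *Myo1e* (FDR = 0.162), *Fyn* (FDR = 0.383), *Col4a3* (FDR = 0.253) and *Col4a4* (FDR = 0.820) were not called (limma). *Foxc1* was called in 22 of 24 settings, with FDRs up to 0.144.

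**Figure D3:**
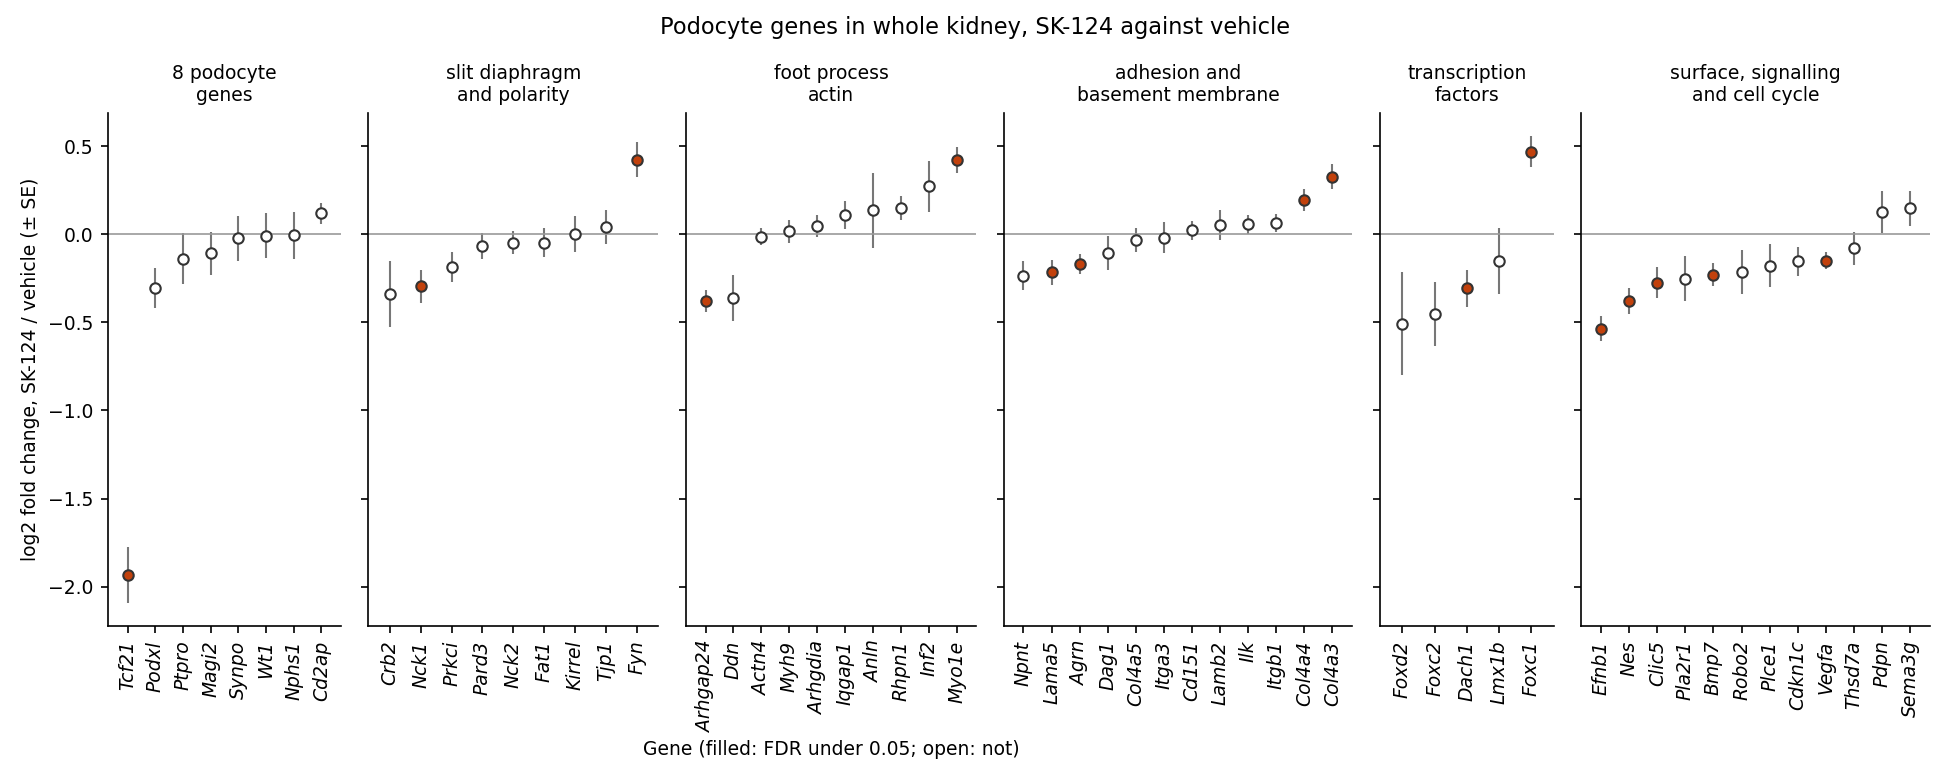
Log2 fold change of SK-124 against vehicle with its standard error for the 8 podocyte genes and for 48 of the 50 tested genes of the wider list by role, with filled points for an FDR under 0.05. *Tcf21* lies lowest at -1.93, and the other genes lie between -0.54 and 0.47.

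Of 6 other podocyte transcription factors, 2 rose, 1 fell and 3 were not called. These counts and those by role below stand beside the 10.8% higher and 13.5% lower of all genes tested. The calls that were lost without 1 mouse are named above. The forkhead factor *Foxc1* rose by 0.47 (FDR = 7.11e-04) without overlap, and *Dach1* fell by 0.31 (FDR = 0.0394) with overlap. *Lmx1b*, a LIM homeobox factor, had -0.15 (SE 0.19, FDR = 0.607).

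Among slit diaphragm and polarity genes, 2 of 10 rose and 1 fell. *Fyn*, the kinase that phosphorylates nephrin, rose by 0.42 (FDR = 0.00462), and *Nck1*, an adaptor that binds phosphorylated nephrin, fell by 0.30 (FDR = 0.0244). *Kirrel*, which encodes the nephrin partner NEPH1, had 0.0018 (SE 0.10, FDR = 0.993).

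Of the 10 actin genes of the foot process, *Myo1e*, an unconventional myosin, rose by 0.42 (FDR = 3.61e-04) and *Arhgap24*, a Rac GTPase-activating protein, fell by 0.38 (FDR = 2.07e-04), both without overlap between the groups. *Actn4*, the podocyte's alpha-actinin, had -0.014 (SE 0.048, FDR = 0.868). Of 12 adhesion and basement membrane genes, 2 rose and 2 fell. The type IV collagen chains *Col4a3* and *Col4a4* rose by 0.33 (FDR = 0.00255) and 0.19 (FDR = 0.0332). *Lama5*, a laminin chain, fell by 0.22 (FDR = 0.0329) and *Agrn*, a heparan sulfate proteoglycan, fell by 0.17 (FDR = 0.0396).

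Of the 12 surface, signaling and cell cycle genes, 5 fell and 7 were not called, beside 13.5% called lower among all genes tested. Of these calls, those of *Clic5* and *Vegfa* were lost without some single mice. *Efnb1*, an ephrin of the slit diaphragm, had a median of 22.5 CPM in vehicle mice (18.4 to 24.2) and 14.9 CPM in SK-124 mice (14.7 to 16.3), and fell by 0.54 (SE 0.07, FDR = 2.34e-05). The intermediate filament gene *Nes* fell by 0.38 (FDR = 8.10e-04), also without overlap. *Clic5* fell by 0.27 (FDR = 0.0275), the growth factor gene *Bmp7* fell by 0.23 (FDR = 0.0153) and *Vegfa*, which supports the glomerular endothelium, fell by 0.15 (FDR = 0.0406). *Cdkn1c*, a cyclin-dependent kinase inhibitor of the quiescent podocyte, had -0.15 (SE 0.08, FDR = 0.203).

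Markers of the cells around podocytes are given beside these values, and their calls stand beside the 10.8% higher and 13.5% lower of all genes tested. Of 8 endothelial markers, *Plat* rose by 0.83, *Ehd3*, *Kdr* and *Tek* fell by 0.87, 0.85 and 0.66, and 4 were not called. Their summed level ranged from 69.9 to 103 TPM in vehicle mice and from 51.7 to 99.9 TPM in SK-124 mice. Of 6 mesangial and juxtaglomerular markers, *Pdgfrb* fell by 0.93 and 5 were not called, with sums of 40.5 to 72.1 and 36.7 to 68.8 TPM. Of 3 parietal epithelial markers, *Akap12* rose by 1.49, *Pax2* fell by 0.51 and *Cldn1* was not called, with sums of 14.1 to 21.5 and 11.2 to 18.3 TPM. The groups' sums overlapped for each of these 3 lists.

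Interstitial fibroblast markers were examined after the *Tcf21* value was seen, since *Tcf21* also marks stromal cells. Of 6 such genes, *Col1a2* fell by 0.45 and 5 were not called, with values of -0.47 for *Col1a1*, -0.42 for *Col3a1*, -0.27 for *Lum*, -0.10 for *Pdgfra* and -0.04 for *Dcn*. The median log2 fold change of the 6 was -0.34, and their summed level ranged from 32.3 to 44.4 TPM in vehicle mice and from 19.9 to 44.3 TPM in SK-124 mice. Proximal tubule markers, the check of the kidney label, were present in every mouse, and 1 of 8 was called lower, with sums of 2678 to 3165 and 2209 to 2738 TPM. Of 8 distal nephron markers 1 rose and 3 fell, with sums of 1037 to 1625 and 1157 to 1550 TPM. Of 4 tested immune markers 2 fell. The sums of all 5 listed immune markers, with the untested *Cd3e*, did not overlap. They were 5.28 to 8.74 TPM in vehicle mice and 3.24 to 4.77 TPM in SK-124 mice. These sums are on TPM, and on log2(TPM + 1) the median of all genes was -0.11. No marker other than *Cd3e* was at 0 in a mouse. The part of these cells in the *Tcf21* value was not tested.

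**Figure D4:**
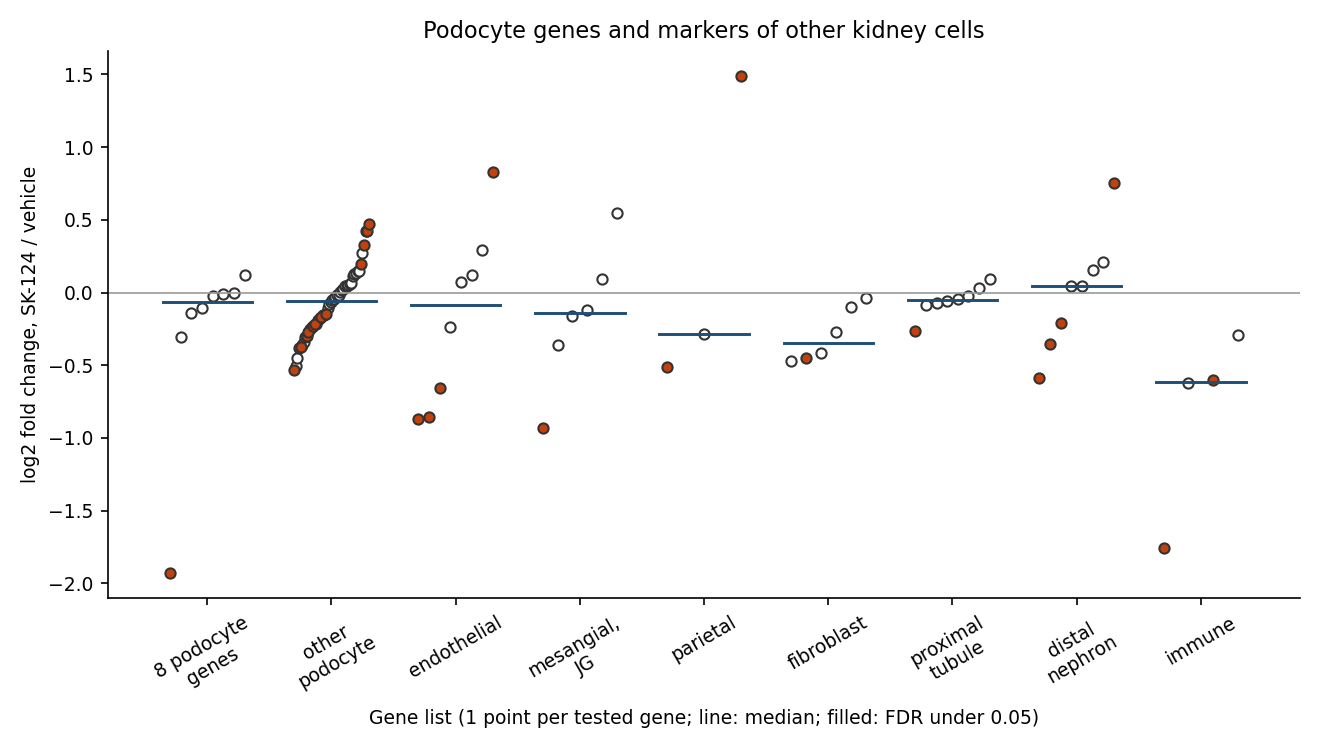
Log2 fold change of each tested gene for the 8 podocyte genes, 48 genes of the wider podocyte list and 7 marker lists of other kidney cells, with a line at each list's median and filled points for an FDR under 0.05. *Tcf21* at -1.93 lies below every marker shown, the nearest being the immune marker *Cd79a* at -1.75.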

How the data were processed

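Whole-kidney mRNA libraries of 12 mice were sequenced on a BGISEQ500 instrument. For each mouse the authors deposited an RSEM gene table of expected counts, TPM and FPKM, in which the authors' expected counts are not normalized and their TPM and FPKM are scaled to effective gene length and library total. The submitters' processing notes name FastQC, STAR 2.7.2b, RSEM 1.3.0, DESeq2 and mm10, and the use of strand is not given in the sources used here. Of 55401 identifiers, 54349 matched GENCODE M21 with their version. Coordinates are given for such genes, except *Synpo*. FPKM was not used. The values of 2 genes of the wider podocyte list, which are in its counts, are not reported here.

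The 8 genes, the gene lists and the motifs were chosen with earlier results of these data known. Expected counts were rounded, filtered with filterByExpr, scaled with TMM and tested by the quasi-likelihood method of edgeR with no replicate block, since the replicate numbers belong to different mice. Standard errors are the log2 fold change over the square root of F. Exact permutation tests used log2(CPM + 0.5). Further named genes were all called podocyte genes, 5 podocyte genes whatever their values, the 5 most alike in pattern, and *Cyp27b1* and *Cyp24a1*. Marker genes to be named were picked with their values in view. The alternatives tried were DESeq2, RLE, library totals, no filter, at least 10 counts in every mouse, limma on log2(TPM + 1) and log2(TPM + 0.1), a replicate block, robust dispersion, each mouse left out, and SK-124 mice 1 to 3 or 4 to 6 alone. Whether mice came from separate litters or cages is not stated, and p-values measure the spread between these mice. No 2 mice of a group looked like 1 library (lowest chi-square per degree of freedom 4.69 over 30 pairs). The fits were tested on simulated data. edgeR 4.0.16, DESeq2 1.42.0 and limma 3.58.1 were run in R 4.3.3, and Python was 3.11.15.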

Additional observations from a re-analysis of the deposited data

Results flagged for a closer look

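In 4 of 58 groups of 6 values, over the 8 podocyte genes and the named genes of the wider list, 1 mouse lay far from the other 5, where chance alone would give about 2.9. *Cd2ap* was 61.5 CPM in vehicle mouse 3, below the 71.9 to 78.0 CPM of the other vehicle mice. *Lmx1b* was 1.07 CPM in the same mouse, below the 1.73 to 2.12 CPM of the others. *Cdkn1c* was 11.0 CPM in SK-124 mouse 6, below 12.9 to 13.8 CPM in the others, and *Efnb1* was 16.3 CPM in SK-124 mouse 4, above 14.7 to 15.1 CPM in the others.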

How the results depend on the processing

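*Tcf21*, *Ptpro* and *Magi2* kept their direction and their side of the threshold in all 23 alternatives. The number of the 8 genes called lower was 2 (*Tcf21* and *Podxl*) with library totals, with no filter and with limma on log2(TPM + 1) and log2(TPM + 0.1), where *Podxl* had -0.42, -0.31, -0.425 and -0.44. Of the wider list, 3 genes were higher with library totals and 1 with each limma fit, and 6 and 5 were lower with SK-124 mice 1 to 3 and 4 to 6 alone. Some log2 fold changes changed sign between settings. *Nphs1* had 0.0040 with DESeq2, 0.00076 with RLE and 0.015 with mice 1 to 3 alone, and *Wt1* had 0.0030 with DESeq2 and 0.012 with mice 1 to 3 alone. *Cd2ap*, at 0.12 in the main fit, had -0.043 and -0.046 with limma, which is 0.064 and 0.098 relative to the median of all genes. *Kirrel* had -0.11 with library totals, -0.0027 with at least 10 counts in every mouse, -0.073 and -0.14 with limma and -0.11 with mice 1 to 3 alone, and *Lmx1b* had 0.0081 with mice 4 to 6 alone. The cause of these changes was not tested.

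With 1 mouse left out, 1 to 2 of the 8 genes were lower (2 without vehicle mouse 1, vehicle mouse 3 or SK-124 mouse 1), and of the wider list 6 to 7 were higher and 5 to 14 lower (5 or 6 without vehicle mice 1 or 4 or SK-124 mice 2, 3 or 6). The log2 fold change then ranged from -0.085 to 0.069 for *Nphs1*, -0.38 to -0.23 for *Podxl*, -0.097 to 0.073 for *Wt1*, -0.095 to 0.065 for *Synpo*, -0.059 to 0.056 for *Kirrel* and -0.030 to 0.0025 for *Actn4*.

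Same-numbered mice did not deviate together (r from -0.13 to 0.22, above 0.1 in 2 of 6 pairs, and 2 of 6 vehicle mice correlated best with their own number). With the replicate block 1573 genes were higher and 1893 lower, beside 1536 and 1917. With the block *Wt1* had 0.00057 and *Kirrel* -0.0037, and *Tcf21* had -1.93.

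Of the calls over all genes, 44.5% were higher with TMM, 20.3% with library totals and 19.01% and 19.04% with the limma fits, as the median log2 fold change moved to between -0.14 and -0.11. *Tcf21* had at least 50 expected counts in every mouse, while *Kirrel2* and *Trpc6* were too low to be tested.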

Other observations

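The 2 podocyte genes of the wider list that were too low to be tested are given by their RSEM counts per mouse. *Trpc6*, which encodes a cation channel of the slit diaphragm, had 1 to 4 counts with a median of 3 in vehicle mice and 0 to 1 with a median of 0 in SK-124 mice. *Kirrel2*, which encodes a nephrin-like adhesion protein, had 0 to 3 counts in both groups. E proteins are the partners with which basic helix-loop-helix factors such as TCF21 bind DNA, and their 3 genes were examined after the *Tcf21* value was seen. *Tcf3* had a median of 18.5 CPM in vehicle mice (17.6 to 20.4) and 13.7 CPM in SK-124 mice (11.5 to 14.9), and fell by 0.46 (SE 0.07, FDR = 7.94e-05, edgeR). *Tcf4* had a log2 fold change of -0.03 and *Tcf12* of -0.04, and neither was called. Among all genes tested, 13.5% were called lower, and 6.65% had every SK-124 mouse below every vehicle mouse, as *Tcf3* had. A link between the *Tcf3* and *Tcf21* values was not tested.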
